A study of Sus scrofa with 12 samples.

Results

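The oocyte growth factor, zona pellucida and maternal complex genes described here are 10 genes, GDF9, BMP15, ZP2, ZP3, ZP4, NLRP5, PADI6, TLE6, OOEP and MOS, chosen by name for their known roles in the oocyte, at a time when earlier results of these data were known. All 10 had a row of their own in a table of 29884 genes. The table came from the left ovaries of 6 multiparous sows (Sus scrofa), killed 4 days after their 4th delivery, with 3 sows of small litter size (SLS, 8.48 ± 0.53 piglets per litter) and 3 of large litter size (LLS, 16.19 ± 0.43 piglets per litter). ZD2, ZD3 and ZD12 name the SLS ovaries and ZD5, ZD7 and ZD8 those of LLS, each from 1 sow of the same commercial piggery, without treatment or pooling. Breed and age were not given in the sources used here. Total RNA freed of ribosomal RNA was sequenced, and levels are in FPKM, a read count scaled for transcript length and for library size. The comparison asks which ovarian transcripts differ with litter size.

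The oocyte stays arrested in meiosis inside its follicle while it grows, and during growth it fills with transcripts that few other cells hold. GDF9 and BMP15 are secreted by the oocyte, belong to the TGF-beta family and act on the granulosa cells around it. ZP2, ZP3 and ZP4 form the zona pellucida, the glycoprotein coat that sperm bind and cross. NLRP5, TLE6 and OOEP are parts of the subcortical maternal complex under the oocyte membrane, and PADI6 is needed for the cytoplasmic lattices of the egg. MOS is the kinase that starts the MAP kinase cascade in meiosis and holds the mature egg in arrest. In whole ovary an oocyte is a rare cell, so fewer or smaller oocytes and less RNA per oocyte cannot be told apart in these libraries.

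The genes lie apart in the genome (Sscrofa11.1, from which all coordinates come). GDF9 (chr2:135181494-135184451, minus strand) and BMP15 (chrX:44613122-44620575, plus strand) have 2 exons each. ZP2 (chr3:24863730-24877522, plus strand, 18 exons) and ZP3 (chr3:9934760-9944924, minus strand, 8 exons) share a chromosome, and ZP4 (chr14:53577138-53584544, plus strand) has 12 exons. NLRP5 (chr6:60375670-60418908) and PADI6 (chr6:75969855-75987097) are both on the plus strand, with 12 and 16 exons. TLE6 is at chr2:75537641-75550676 (minus strand, 17 exons in its longest model) and OOEP at chr1:53006898-53007877 (minus strand, 3 exons). OOEP lies 7824 bases from KHDC3L, another gene of the same complex. MOS (chr4:75739402-75741076, plus strand) has a single exon inside a long noncoding RNA gene of the opposite strand, LOC110260293, with which it shares 0 exon bases. The end of ZP2 overlaps 110 exon bases of the opposite strand gene TMEM159. The library kit removes the second cDNA strand, but the strand setting of the counting was not given in the sources used here, so reads of ZP2 and TMEM159 may be mixed there.

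Zona pellucida genes are expressed in the growing oocyte, and in mouse the factor FIGLA, which binds E-boxes (the hexamer CANNTG), is known to activate several of them. The 250 bases before the annotated start of each are shown in the gene's own direction to set them side by side, with every E-box in capitals. The positions are chr3:24863480-24863729 (plus strand) for ZP2, chr3:9944925-9945174 (minus strand) for ZP3 and chr14:53576888-53577137 (plus strand) for ZP4.
ZP2: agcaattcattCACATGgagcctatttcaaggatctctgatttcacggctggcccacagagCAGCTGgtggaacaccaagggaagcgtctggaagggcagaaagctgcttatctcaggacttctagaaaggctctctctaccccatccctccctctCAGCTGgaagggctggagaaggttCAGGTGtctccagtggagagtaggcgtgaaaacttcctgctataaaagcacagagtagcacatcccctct
ZP3: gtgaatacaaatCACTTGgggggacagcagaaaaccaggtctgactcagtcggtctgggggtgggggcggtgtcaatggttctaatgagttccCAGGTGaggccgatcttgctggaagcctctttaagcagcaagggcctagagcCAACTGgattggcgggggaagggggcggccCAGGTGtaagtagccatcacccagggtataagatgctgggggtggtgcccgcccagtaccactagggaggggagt
ZP4: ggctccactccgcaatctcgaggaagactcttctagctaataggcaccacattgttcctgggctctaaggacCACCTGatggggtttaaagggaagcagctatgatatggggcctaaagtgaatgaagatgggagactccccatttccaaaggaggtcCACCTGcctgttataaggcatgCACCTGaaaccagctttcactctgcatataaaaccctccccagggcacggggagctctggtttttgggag

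Counted back from the start, the E-box CAGGTG began at -70 in ZP2 and at -75 in ZP3, and the same hexamer read on the other strand, CACCTG, began at -70 in ZP4. The window from -80 to -60 held CAGGTG on either strand in 275 of 19556 promoters of the annotation, or 1.406%. This hexamer and window were chosen after the sequences had been seen, so the share is a description. Over the whole 250 bases, 9 of the 10 genes held at least 1 CANNTG, against 61.874% of all promoters, and 8 of 10 held 2 or more, against 28.39%. CAGGTG or CACCTG, which is a subset of CANNTG, was found in 7 of 10 genes and in 19.559% of all promoters. ZP2, ZP3 and ZP4, from which this hexamer was chosen, are among the 7, so this count too is a description. BMP15 was the gene without an E-box, and GDF9 and MOS held E-boxes of other letters. The hexamer TAATTG, searched on both strands as a homeobox motif, was found in 0 of 10 genes and in 6.065% of all promoters. A second such hexamer, TAATTA, was found in 1 of 10, GDF9 at -210, and in 3.733% of all promoters. A TATAAA in the gene's direction was present in ZP2 and ZP4 and in 6.152% of promoters. A match is only a run of letters, and the models of GDF9 and OOEP begin at their start codon, so their windows may not hold the promoter.

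**Figure D1:**
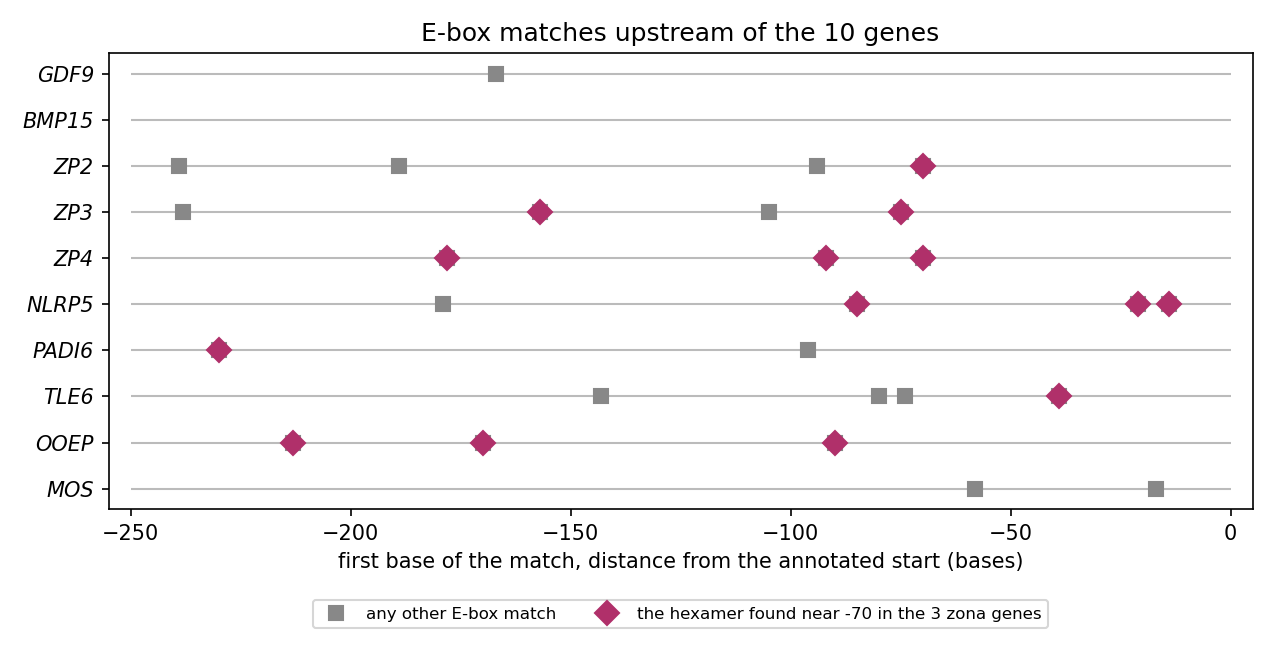
E-box matches in the 250 bases before the annotated start of the 10 genes, with the distance of each match's first base from the start on the x axis (bases). Grey squares are CANNTG matches of any other letters and red diamonds the hexamer of the zona genes on either strand, which stands at -70, -75 and -70 in ZP2, ZP3 and ZP4.

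All 10 genes were highest in the LLS ovary ZD8 and second in the SLS ovary ZD12, so that the ovaries with most oocyte transcripts came from opposite groups. The members summed to 152 FPKM in ZD8 and 27.5 FPKM in ZD12, against 7.52 FPKM in ZD2, 6.57 in ZD3, 8.90 in ZD5 and 13.5 in ZD7. Behind these sums stood 8350 reads in ZD8, 2403 in ZD12 and between 489 and 1228 in the other 4 ovaries. ZD8 had the smallest total of reads on genes, by which FPKM is scaled, with 32272803 against 51703531 to 60903268. Its excess was thus there in reads as well as in FPKM. Many other genes shared this order. Of 23564 genes above 0 FPKM, 52.4% were highest in ZD8, 27.9% were highest in ZD8 and second in ZD12, and 18.4% were at least 5 times the mean of the other 5 ovaries in ZD8, as were 10 of 10 members.

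ZD8 also stood apart across the whole table. The first principal component took 67.1% of the variance and placed ZD8 at 96.5, with the other 5 ovaries between -32.2 and 9.50. Genes of luteal cells, the progesterone makers of the corpus luteum, summed to 124 FPKM in ZD8 and to 9167 to 12191 FPKM in the others, or 0.0396% against 2.31% to 3.10% of the reads. Its median gene was 0.23 above the other ovaries on the log2(FPKM + 1) scale, and that of ZD12 0.14 above. The part of these differences in the levels of the oocyte genes was not tested, and the main results are given with and without ZD8.

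**Figure D2:**
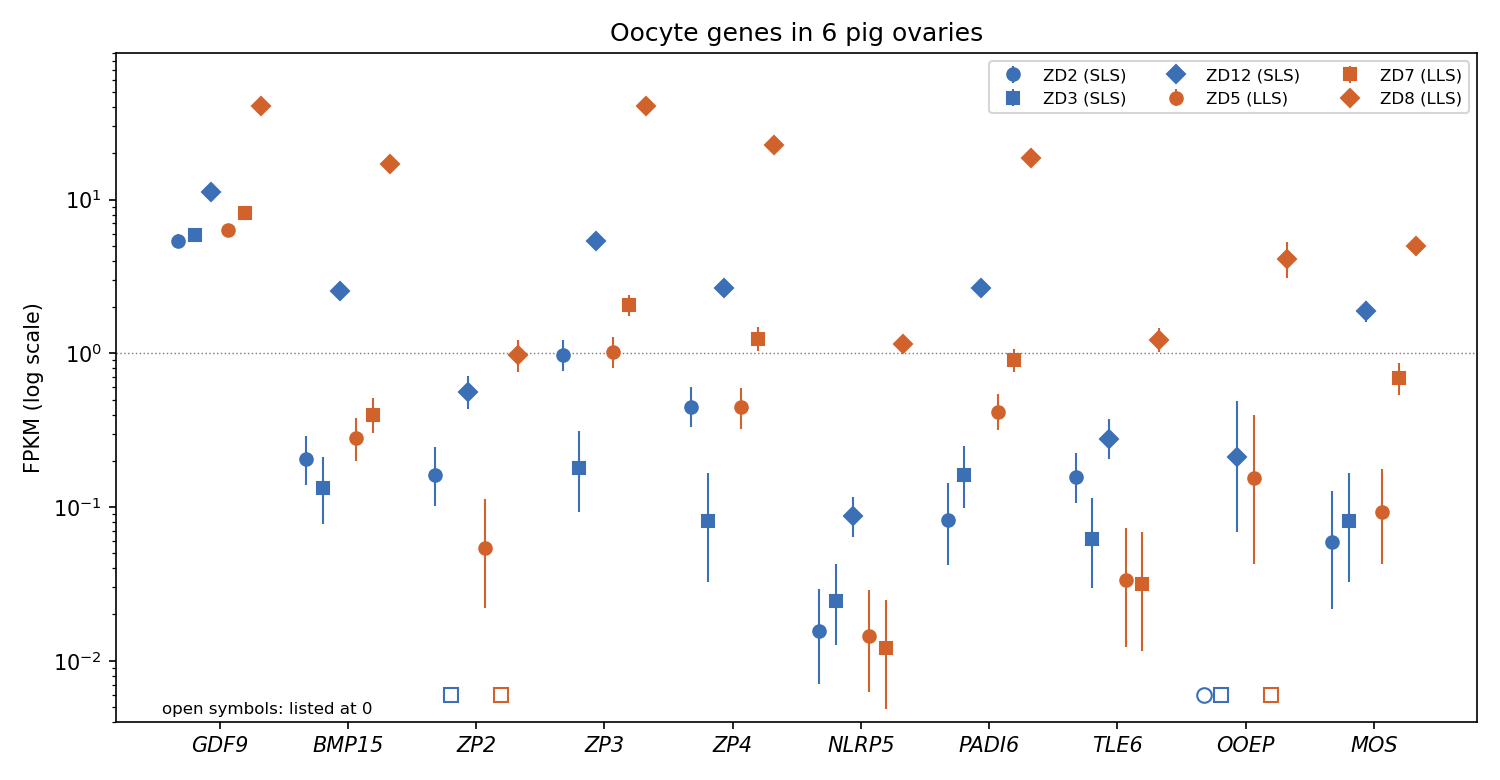
Levels of the 10 genes in each of the 6 ovaries, in FPKM on a log axis, with SLS ovaries in blue and LLS ovaries in orange. Bars are 95% Poisson counting intervals open symbols are values listed at 0 and the dotted line marks 1 FPKM. In every gene the orange diamond of ZD8 is highest and the blue diamond of ZD12 second.

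GDF9 was the most abundant of the 10 genes in each of the 6 ovaries and varied least. In SLS it stood at 5.41 FPKM (ZD2), 5.85 (ZD3) and 11.3 (ZD12), and in LLS at 6.39 (ZD5), 8.16 (ZD7) and 40.6 FPKM (ZD8). The highest ovary was 7.50 times the lowest, and the groups overlapped. Even in the ovary with fewest, 404 reads lay behind its level. GDF9 alone made 71.8% to 89.0% of the summed level in ZD2, ZD3 and ZD5, but 26.7% in ZD8.

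BMP15, its partner in oocyte signalling, ranged far more widely. Its levels were 0.206, 0.133 and 2.54 FPKM in ZD2, ZD3 and ZD12 and 0.281, 0.398 and 17.0 FPKM in ZD5, ZD7 and ZD8, the highest being 128 times the lowest. The 4 low ovaries rested on 17 to 60 reads each. The level of GDF9 over that of BMP15 was 26.3 in ZD2 (95% counting interval 18.3 to 39.2), 44.1 in ZD3, 22.8 in ZD5 and 20.5 in ZD7. In ZD12 the ratio was 4.44 (3.90 to 5.06), and in ZD8 it was 2.39 (2.22 to 2.57). The intervals of ZD12 and ZD8 overlapped neither each other nor those of the other 4 ovaries, of which the lowest bound was 15.7. The growth factors thus did not keep one proportion, and BMP15 gained on GDF9 in the ovaries where both were high. Each interval here covers counting error in 1 library and not the spread between sows.

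ZP3 was second to GDF9 in all 6 ovaries. It stood at 0.976, 0.179 and 5.38 FPKM in ZD2, ZD3 and ZD12 and at 1.02, 2.07 and 40.4 FPKM in ZD5, ZD7 and ZD8. ZP3 therefore came level with GDF9 in ZD8, where 1689 and 1749 reads lay behind the values of these genes. ZP4 was at 0.450, 0.0806 and 2.68 FPKM in ZD2, ZD3 and ZD12 and at 0.445, 1.24 and 22.7 FPKM in ZD5, ZD7 and ZD8. From the lowest to the highest ovary, ZP3 spanned 225 times and ZP4 282 times, the low end resting on 12 and 7 reads in ZD3.

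Across that span ZP3 and ZP4 kept nearly one proportion. The level of ZP3 over that of ZP4 was 2.17, 2.22 and 2.01 in ZD2, ZD3 and ZD12 and 2.29, 1.66 and 1.78 in ZD5, ZD7 and ZD8. The counting intervals of all 6 ovaries overlapped, from 0.807 to 6.66 in ZD3 with its few reads to 1.65 to 1.91 in ZD8. Both gene models are marked as partial in the annotation, so the ratio itself depends on the lengths used.

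ZP2 followed less closely. It was at 0.162, 0 and 0.559 FPKM in ZD2, ZD3 and ZD12 and at 0.0545, 0 and 0.972 FPKM in ZD5, ZD7 and ZD8. The zeros of ZD3 and ZD7 allow up to 0.0260 and 0.0221 FPKM, the level of 3 reads. ZD8 held 70 reads and ZD12 held 66, so ZP2 was 1.74 times and ZP3 7.50 times higher in ZD8 than in ZD12. The level of ZP3 over that of ZP2 went from 9.64 in ZD12 (7.40 to 12.7) to 41.6 in ZD8 (32.7 to 53.6). ZP2 did not reach 1 FPKM in any ovary.

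**Figure D3:**
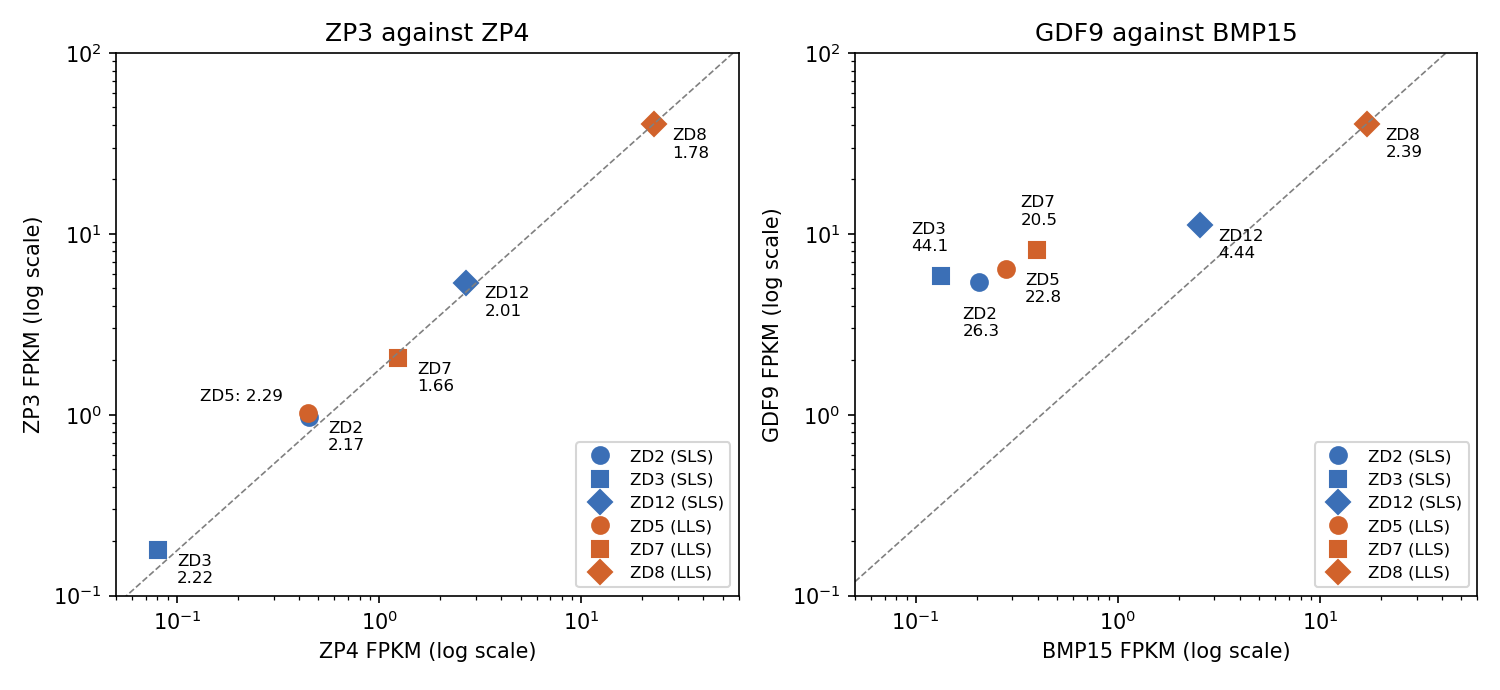
ZP3 against ZP4 (left) and GDF9 against BMP15 (right) in the 6 ovaries, both axes in FPKM on a log scale, with the ratio of the levels printed beside each ovary. The dashed line marks the ratio of ZD8. ZP3 and ZP4 lie along it with ratios of 1.66 to 2.29, whereas the ratio of GDF9 to BMP15 spreads from 2.39 to 44.1.

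PADI6 was the most abundant of the 4 genes of the maternal complex and lattices. It stood at 0.0818, 0.161 and 2.68 FPKM in ZD2, ZD3 and ZD12 and at 0.418, 0.900 and 18.6 FPKM in ZD5, ZD7 and ZD8. Its order over the 6 ovaries was that of GDF9. NLRP5, the maternal factor first known as MATER, was at 0.0155, 0.0244 and 0.0872 FPKM in ZD2, ZD3 and ZD12 and at 0.0146, 0.0121 and 1.14 FPKM in ZD5, ZD7 and ZD8. Outside ZD8 these are 7 to 44 reads, spread over an annotated model of 9531 bases that makes the FPKM of each read small. PADI6 over NLRP5 was 16.3 in ZD8 (14.5 to 18.3) and 30.7 in ZD12 (22.4 to 43.0), so these genes did not share a fixed proportion. From few NLRP5 reads, the ratio was 5.28 in ZD2, 6.60 in ZD3, 28.7 in ZD5 and 74.6 in ZD7.

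TLE6, a co-repressor relative that binds the complex, was at 0.158, 0.0620 and 0.279 FPKM in ZD2, ZD3 and ZD12 and at 0.0334, 0.0316 and 1.22 FPKM in ZD5, ZD7 and ZD8. ZD5 and ZD7 held 6 reads each. OOEP, whose short model has 447 bases, was listed at 0 in ZD2, ZD3 and ZD7, which allows up to 0.110, 0.130 and 0.110 FPKM. It reached 0.211 FPKM in ZD12 from 5 reads, 0.155 FPKM in ZD5 from 4 reads and 4.09 FPKM in ZD8 from 59 reads. Outside ZD8, OOEP was thus near the limit of detection in each ovary.

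MOS was at 0.0588, 0.0808 and 1.88 FPKM in ZD2, ZD3 and ZD12 and at 0.0933, 0.686 and 5.03 FPKM in ZD5, ZD7 and ZD8. ZD7, with 70 reads, lay between the other low ovaries (6 to 9 reads) and ZD12 with 167 reads. The step from ZD12 to ZD8 was 2.67 times, smaller than in each other member but ZP2.

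The excess of ZD8 over ZD12 differed from gene to gene by more than counting error. The ratio was 1.74 for ZP2 (95% counting interval 1.22 to 2.47), 2.67 for MOS (2.19 to 3.26) and 3.61 for GDF9 (3.32 to 3.93). It was 4.38 for TLE6 (3.10 to 6.29), 6.70 for BMP15 (5.94 to 7.58), 6.96 for PADI6 (6.18 to 7.85), 7.50 for ZP3 (6.70 to 8.42) and 8.49 for ZP4 (7.38 to 9.79). NLRP5 had 13.1 (9.57 to 18.4) and OOEP 19.3 (7.84 to 61.8). The intervals of BMP15, PADI6 and ZP3 overlapped, and GDF9, MOS and ZP2 lay below it. These ratios compare 1 ovary with 1 other, from different groups, and say nothing of litter size.

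**Figure D4:**
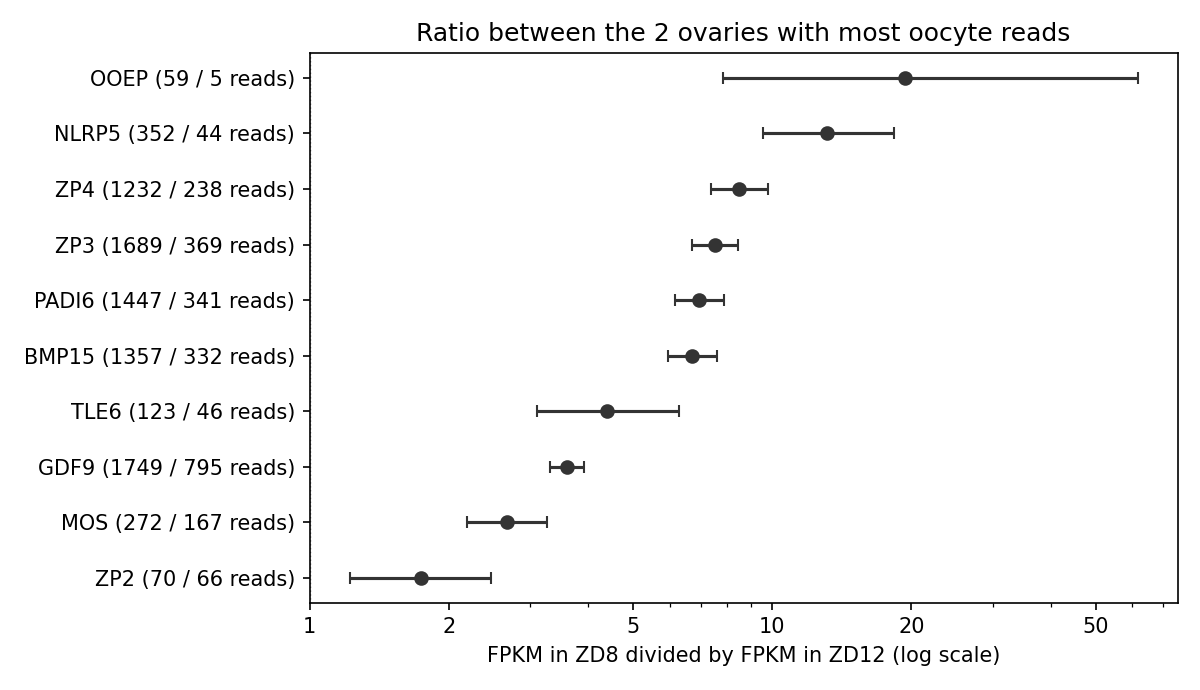
Level in ZD8 divided by level in ZD12 for each gene, on a log axis, with the reads of both ovaries in the gene's label. Points are FPKM ratios and bars 95% exact counting intervals, running from 1.74 for ZP2 to 19.3 for OOEP.

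Between the litter size groups no member differed beyond the spread of the ovaries. Levels of LLS and SLS ovaries overlapped in all 10 genes, so 0 of 10 were separated, against 4.77% of the 23564 genes above 0 FPKM. Of the 10 members, 3 passed the filter of at least 1 FPKM in 3 ovaries that the test across genes used, namely GDF9, ZP3 and ZP4. Of 12260 genes tested by limma on log2(FPKM + 1), 0.0% were called, which took an adjusted p below 0.05 together with a log2 fold change beyond 1 in size, and 216 had an unadjusted p under 0.05. The smallest adjusted p was 0.860. GDF9 had 18.4 ± 19.3 FPKM in LLS and 7.51 ± 3.25 FPKM in SLS (SD, n = 3 each), a log2 difference of 0.80 with a standard error of 0.63. ZP3 had 14.5 ± 22.4 FPKM in LLS and 2.18 ± 2.80 FPKM in SLS, a log2 difference of 1.37 (standard error 1.10). ZP4 had 8.14 ± 12.6 FPKM and 1.07 ± 1.41 FPKM, a log2 difference of 1.25 (standard error 0.98). The adjusted p of these 3 genes by limma was 0.999.

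The other 7 genes were read from the same fit without the filter, in which 0.0% of 23564 genes were called and 416 had an unadjusted p under 0.05. Their log2 differences, LLS minus SLS, were 0.91 for BMP15 (standard error 1.14), 1.17 for PADI6 (1.12) and 0.76 for OOEP (0.63). They were 0.58 for MOS (0.74), 0.32 for NLRP5 (0.30), 0.20 for TLE6 (0.31) and 0.07 for ZP2 (0.31). The adjusted p of all 7 by limma was 0.993. On recovered reads without a pseudocount of 1, edgeR gave larger differences, of 2.28 for BMP15, 2.46 for PADI6, 3.88 for OOEP, 1.26 for MOS, 2.79 for NLRP5, 0.95 for TLE6 and 0.15 for ZP2, with an adjusted p of 0.999 by its quasi-likelihood test. It gave 1.21 for GDF9, 2.64 for ZP3 and 2.84 for ZP4 with the filter, where the adjusted p was 0.9996. In exact two-sided permutation tests over the ovaries, p was 0.5 for GDF9, BMP15, ZP3, PADI6 and MOS, 0.6 for ZP4, 0.7 for OOEP, 0.9 for ZP2 and 1 for NLRP5 and TLE6. With 3 ovaries against 3 the smallest p such a test can give is 0.1.

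The difference moved with the ovary left out. Without ZD8, the log2 difference of GDF9 went from 0.80 to 0.02, that of ZP3 from 1.37 to 0.02 and that of ZP4 from 1.25 to 0.0056 (limma without the filter). Those of BMP15, ZP2, TLE6, MOS, NLRP5 and PADI6 turned to -0.34, -0.25, -0.17, -0.13, -0.04 and -0.02, and OOEP was at 0.01. With a pseudocount of 0.1 in place of 1, PADI6 and MOS were at 0.50 and 0.02 without ZD8, ZP2 and TLE6 at -1.06 and -0.92, and ZP3 and ZP4 at 0.40 and 0.39, so the sign of PADI6 and MOS depended on the pseudocount. Without the high SLS ovary ZD12 the differences were larger, with 1.09 for GDF9, 2.06 for ZP3, 1.44 for BMP15, 1.74 for PADI6 and 1.06 for MOS. Without ZD5 they were 1.26 for GDF9, 2.20 for ZP3 and 2.02 for ZP4, and in none of these fits was a member called. The 95% confidence intervals without ZD8 ran from -0.86 to 0.89 for GDF9, from -1.88 to 1.92 for ZP3 and from -0.72 to 0.23 for ZP2, on a scale that understates changes at levels as low as those of ZP2. No statement of equal levels in the groups follows from these tests.

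**Figure D5:**
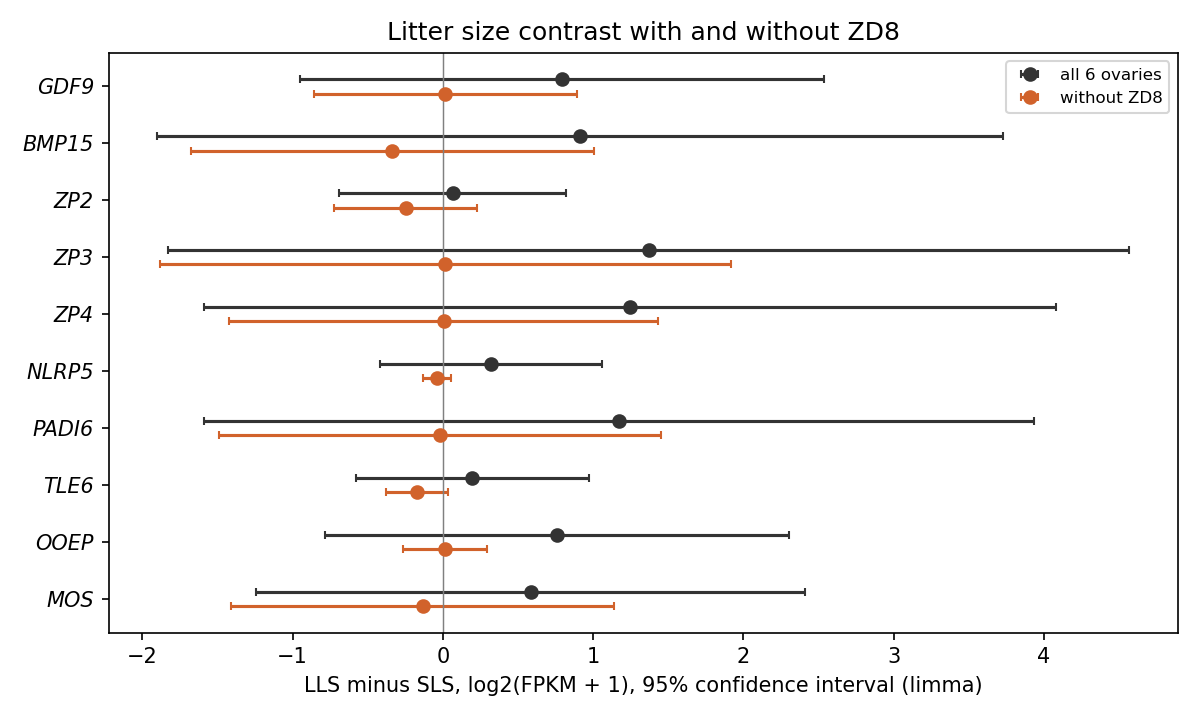
Difference between LLS and SLS for each gene on the log2(FPKM + 1) scale, from limma without the filter on low values, with 95% confidence intervals. Black shows all 6 ovaries and orange the 5 ovaries without ZD8. The orange points lie between -0.34 for BMP15 and 0.02 for GDF9 and ZP3.

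Over the 6 ovaries the members were correlated, and how far this rested on ZD8 and ZD12 differed between genes. Pearson's r of log2(FPKM + 1) ran from 0.849 to 0.997 over the 45 pairs of genes, with a median of 0.956, and all 45 had an adjusted exact permutation p under 0.05 (Benjamini-Hochberg over the 45 pairs, largest 0.0417). Every member had ZD8 highest and ZD12 second, so the 45 tests share that order and are not separate results. Each member had an r of 0.928 to 0.996 with the mean profile of the other 9. Such values were common, since 23.3% of the 23554 other genes above 0 FPKM had an r of at least 0.928 with the mean profile of the 10 members, and 35.2% one of at least 0.849. Spearman's rho ran from 0.429 to 1 with a median of 0.820, and 4 of 45 pairs had an adjusted exact permutation p under 0.05. Without ZD8 the median r was 0.809, with a range of 0.495 to 0.995. In all 45 pairs the ovaries farthest from the median were ZD8 and ZD12, and without both the median r was 0.0021, with a range of -0.96 to 0.991 and 23 of 45 pairs above 0. The pairs then fell into 2 sets, which were told apart after their values had been seen. All 15 pairs among GDF9, BMP15, ZP3, ZP4, PADI6 and MOS stayed above 0 in the remaining 4 ovaries, with an r of 0.733 to 0.991 and a median of 0.883. Among these, GDF9 with PADI6 had 0.991 and ZP3 with ZP4 had 0.977. ZD7 was the highest of the 4 ovaries for each of these genes, and how far their r rests on it was not tested. MOS had 6 to 9 reads in ZD2, ZD3 and ZD5. No share over all genes was taken for these 4 ovaries. Of the 30 pairs with ZP2, NLRP5, TLE6 or OOEP, 22 were below 0, with a range of -0.96 for ZP3 with NLRP5 to 0.868 for ZP2 with TLE6. These 4 genes had 0 to 30 reads in each of the 4 ovaries. For their pairs other than ZP2 with TLE6, the relation over 6 ovaries rests on ZD8 and ZD12. Genes of one library share its tissue and depth, so the pairs are not independent of each other.

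Other oocyte genes were grouped in lists by known function, and the lists differed in how many genes had the order of the members. Of 25 further oocyte genes above 0 FPKM, 22 were highest in ZD8, and 18 were highest in ZD8 and second in ZD12. The median log2 difference over the 25 was 0.32 without the filter, beside 0.04 over all 23564 genes, and 0 of 25 were called. Without ZD8 it was -0.0040 over the 24 still above 0 FPKM, beside -0.03 over all 22910 genes. The 3 genes past the filter had a median of -0.32 over the 6 ovaries. Of 4 other genes of the subcortical maternal complex, 3 had this order, and NLRP2 was listed at 0 in both ZD8 and ZD12. KHDC3L, which lies beside OOEP and belongs to the same complex, had 0.420, 0.0825 and 3.73 FPKM in ZD2, ZD3 and ZD12 and 0.210, 1.33 and 19.9 FPKM in ZD5, ZD7 and ZD8. CPEB1, a regulator of stored oocyte transcripts, stood at 17.8 FPKM in ZD8 and 4.37 FPKM in ZD12, with 0.555 to 1.42 FPKM in the other 4. Of 4 other egg coat and egg membrane genes, 1 had the order of the members. CD9, an egg membrane protein that many cells carry, was lowest in ZD8, at 28.3 FPKM against 40.9 to 78.7 FPKM. Of the 25 further oocyte genes, 2 were lowest in ZD8, KIT and CCNB3. KIT, the stem cell factor receptor, which other ovarian cells express too, had 27.1 FPKM in ZD8 against 74.5 to 180 FPKM. CCNB3 had 1.89 FPKM in ZD8 against 2.87 to 3.98 FPKM.

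Of the 6 oocyte transcription factors measured, 5 were highest in ZD8 and 0 were called. TAF4B, a subunit of the general transcription machinery, was at 14.2 FPKM in ZD8 and 4.44 to 6.79 FPKM in the others. NOBOX, a homeobox factor of the early follicle, was at 3.84 FPKM in ZD8, 0.526 in ZD12 and 0.0201 to 0.152 in the rest. LHX8 was at 3.20 FPKM in ZD8 and 0.589 FPKM in ZD12. FIGLA, the E-box factor named above, was at 0.510 FPKM in ZD8 and between 0 and 0.0212 FPKM in the others. SOHLH1, a basic helix-loop-helix factor of early follicles, was the exception. It had 2.78, 1.81 and 1.66 FPKM in ZD2, ZD3 and ZD12 and 11.2 and 10.5 FPKM in ZD5 and ZD7, but 0.493 FPKM in ZD8, its lowest value. Over all 6 ovaries its log2 difference was 0.96 (standard error 0.75, adjusted p = 0.999 by limma), and without ZD8 it was 1.96 (standard error 0.26, adjusted p = 0.0260 by limma), when 20 of 11985 genes were called. That call was lost without the filter on low values, where 0 of 22910 genes were called without ZD8. The lowest adjusted p of that limma fit was 0.406, and before adjustment 1183 genes were under 0.05.

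Of the 9 receptors and SMAD proteins that carry GDF9 and BMP15 signals, 1 had the order of its ligands, highest in ZD8 and second in ZD12. Of the 9, 5 were highest and 2 lowest in ZD8. All 9 passed the filter and 0 were called, with a median log2 difference of 0.12 beside 0.02 over all 12260 genes tested. Without ZD8 and without the filter, their median was -0.16, beside -0.03 over all 22910 genes. BMPR2, the type II receptor that both ligands use, ran from 34.6 to 55.9 FPKM, with 46.6 in ZD8 and the lowest value in ZD12. BMPR1B, a type I receptor of BMP15, was lowest in ZD8 at 3.22 FPKM against 7.40 to 18.8 FPKM. BMPR1A, another type I receptor, was highest in ZD8 at 14.6 FPKM against 5.64 to 10.7 FPKM. TGFBR1, a type I receptor of GDF9, was also lowest in ZD8, at 17.4 FPKM against 20.6 to 66.8 FPKM. SMAD4, the shared partner of the signal transducers, was highest there at 49.9 FPKM against 17.6 to 29.6 FPKM. Of the 10 genes of the MOS pathway and meiotic maturation, 9 passed the filter and 0 were called. Their median log2 difference was -0.18, and 6 of 10 were lowest in ZD8. Without ZD8 and without the filter, the median of the 10 was -0.10. MAPK3, at the end of the cascade that MOS starts, ranged from 74.5 to 113 FPKM.

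In each of the 18 lists of oocyte, pathway and cell type genes 0 genes were called over the 6 ovaries. Markers of other ovarian cells also differed in ZD8. All 3 theca markers, for the androgen-making layer of the follicle, were highest in ZD8 and second in ZD12, with sums of 446 and 105 FPKM against 27.0 to 35.9 FPKM. Of 9 granulosa markers, 3 had this order and 3 were lowest in ZD8. The 4 most abundant were divided. INHA, the inhibin alpha subunit, was at 66.4 FPKM in ZD8 and 726 in ZD12, against 162 to 553 FPKM. NR5A2, a nuclear receptor that luteal cells share, was at 1.69 FPKM in ZD8 and 178 in ZD12, against 168 to 262 FPKM. INHBB, an inhibin beta subunit, was highest in ZD12 at 84.6 FPKM, with 21.6 in ZD8 and 4.57 to 21.7 FPKM in the others. FOXL2, a granulosa transcription factor, was at 37.8 FPKM in ZD8 and 30.6 in ZD12, against 6.11 to 13.8 FPKM. The other 2 with the order of the members were AMH and FSHR. AMH, made by granulosa cells of small growing follicles, was at 12.01 FPKM in ZD8 and 7.21 FPKM in ZD12, against 0.208 to 1.82 FPKM. FSHR, the receptor of follicle-stimulating hormone, was at 10.8 FPKM in ZD8 and 4.50 FPKM in ZD12, against 0.202 to 2.68 FPKM. All 4 endothelial markers were lowest in ZD8, with a sum of 106 FPKM against 236 to 359 FPKM. All 5 macrophage and T cell markers were highest in ZD8, with a sum of 38.3 FPKM against 17.4 to 30.3 FPKM. Of 5 stromal markers, 3 were highest and 2 lowest in ZD8. DCN, the matrix protein decorin, was at 1854 FPKM there against 363 to 859 FPKM, while COL3A1 was at 451 FPKM against 1430 to 3222 FPKM. Of 4 smooth muscle markers, 2 were highest in ZD8, among them MYH11, a myosin of smooth muscle, at 190 FPKM against 15.5 to 47.1 FPKM. The more abundant ACTA2 and TAGLN were neither highest nor lowest there. ACTA2 had 428 FPKM in ZD8, between 196 FPKM in ZD5 and 1098 FPKM in ZD2. TAGLN had 246 FPKM in ZD8, between 90.3 FPKM in ZD5 and 619 FPKM in ZD2. The sum of the 4 markers in ZD8, 892 FPKM, lay below those of ZD2 (1771) and ZD12 (1087) and above those of ZD3, ZD5 and ZD7. Of 4 surface epithelium markers, 0 were highest and 0 lowest in ZD8. The share of the oocyte pattern that goes with these cells was not tested.

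All genes tested other than the members were ranked by how closely their log2(FPKM + 1) followed the mean profile of the 3 members past the filter. Over 6 ovaries the 5 closest of 12257 genes were WNT6, HCN3, ICE1, RNF44 and SH3PXD2A, with Pearson's r of 0.998 to 0.999, and 56 genes had an r over 0.99. Without ZD8 they were DHX32, BLOC1S3, WNT6, LOC106510200 and AFG3L2, with 14 genes over 0.99. WNT6, a secreted WNT ligand, was on both lists, with 0.856, 0.480 and 2.31 FPKM in ZD2, ZD3 and ZD12 and 0.917, 1.43 and 9.46 FPKM in ZD5, ZD7 and ZD8. Against the mean profile of all 10 members, without the filter and with a pseudocount of 0.1, the 5 closest of 23554 genes were others, NGRN, TBCC, WNT7A, SGF29 and LOC100525078, and 128 genes had an r over 0.99. With so few ovaries and so many genes, a high r is easily reached, and it is given as a description.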

How the data were processed

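After quality trimming (NGSQCToolkit) and HISAT2 mapping to Sscrofa11.1, the authors deposited FPKM for each gene and library. They deposited small RNA levels as RPM, used here only to check depth. The counting program was not given in the sources used here. The members and lists were chosen with earlier results of these data known. FPKM times the longest annotated transcript (NCBI annotation of Sscrofa11.1) gave whole reads, within 0.001, for 99.7% of the 23564 genes above 0. From these come the totals by which FPKM is scaled, 32272803 to 60903268 reads, nearly all of them on genes. The full sequencing depth is not known from them. All intervals (exact Poisson or Clopper-Pearson, 95%) cover counting error only, since reads without molecular identifiers are not independent molecules. A count of 0 allows up to 3 reads.

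LLS and SLS were compared with limma 3.58.1 (R 4.3.3, trended variance) on log2(FPKM + 1) over genes with at least 1 FPKM in 3 of 6 libraries, with Benjamini-Hochberg adjustment over all of them. Fold changes on this scale understate those of low genes. The study used DESeq2, which needs counts, so DESeq2 1.42.0 and edgeR 4.0.16 were run on the recovered reads as alternatives, beside a pseudocount of 0.1, no filter, other scalings, array weights and leaving out each ovary. Named genes were the 10 members, up to 4 genes per list by mean FPKM, and the 5 genes closest to the members' profile. FIGLA, BMPR1A, BMPR1B, AMH and FSHR fall outside this rule and were chosen after their values were seen. Replicates are separate sows.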

Additional observations from a re-analysis of the deposited data

How the results depend on the processing

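No member was called under any alternative that gave it a test. The number of genes called in the whole table went from 0 to 13 with array weights, to 22 with DESeq2 on recovered reads and to 21 with DESeq2 without the filter (an alternative chosen after seeing the data), and edgeR's quasi-likelihood test called 0. DESeq2 gave no p for ZP3 with the filter, nor for BMP15 and NLRP5 without it. On recovered reads without the filter, the log2 differences by edgeR and DESeq2 were 3.88 and 4.05 for OOEP and 2.79 and 2.84 for NLRP5. They were 2.46 and 2.51 for PADI6, 2.28 and 2.33 for BMP15 and 1.26 and 1.31 for MOS. TLE6 had 0.95 and 0.98 and ZP2 0.15 and 0.19. In the same fits ZP4 had 2.60 and 2.64, ZP3 2.40 and 2.45 and GDF9 1.02 and 1.04. With the filter ZP4 had 2.84 and 2.83, ZP3 2.64 and 2.64 and GDF9 1.21 and 1.19. Leaving out 1 ovary gave 0 to 20 calls, with 20 without ZD8 and 0 without each other ovary. In the gene lists 0 to 2 genes were called, the 2 being SOHLH1 and EPCAM without ZD8. The median correlation among members was 0.820 as Spearman's rho, and 0.809 to 0.982 over the leave-one-out sets, lowest without ZD8.

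Array weights, which gave ZD8 a weight of 0.135 against 0.597 to 2.27, turned the log2 difference to -0.0627 for GDF9, -0.29 for ZP3 and -0.20 for ZP4 with the filter. Without the filter it was -0.25 for BMP15, -0.22 for ZP2, -0.0182 for NLRP5, -0.16 for TLE6 and -0.14 for MOS, but 0.0438 for GDF9, -0.0067 for ZP3 and -0.0184 for ZP4. PADI6 and OOEP stayed above 0, at 0.0400 and 0.0904. ZP2 also turned to -0.0198 with a pseudocount of 0.1 and to -0.0889 with quantile normalization, and without ZD3 it was -0.0764. Over the leave-one-out fits the log2 difference ran from -0.34 to 1.57 for BMP15, -0.25 to 0.24 for ZP2, -0.0401 to 0.50 for NLRP5, -0.0203 to 1.87 for PADI6, -0.17 to 0.38 for TLE6, -0.13 to 1.10 for MOS, 0.02 to 1.26 for GDF9, 0.02 to 2.20 for ZP3 and 0.01 to 1.19 for OOEP, each lowest without ZD8, and 0.0056 to 2.02 for ZP4. ZP4 missed the filter without ZD12, ZD7 or ZD8, and its values there, 1.76, 1.71 and 0.0056, are from the fit without the filter. With a pseudocount of 0.1, no filter and no ZD8 together, an alternative chosen after seeing the data, ZP2 was at -1.06, TLE6 at -0.92, BMP15 at -0.39 and NLRP5 at -0.30, and the other 6 members were above 0. The cause of these shifts was not tested. For the 7 genes under the filter, the alternatives without it were added after seeing the data. No paired analysis was possible because the ovary numbers do not pair sows across groups. Depth limits OOEP, ZP2, ZP4, TLE6, NLRP5 and MOS, which had fewer than 10 reads in at least 1 ovary.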
